A study of Homo sapiens with 4 samples.

Results

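10 receptor tyrosine kinases that can carry growth signals beside EGFR and HER2 were followed in lapatinib-resistant breast cancer cells: AXL, MERTK, MET, MST1R, IGF1R, INSR, FGFR1, FGFR2, FGFR3 and FGFR4. Probes were assigned to these genes where the RefSeq accession on the array belonged to one of them, which gave 15 probes for 9 of the 10 receptors, out of 16422 genes named in this way. MERTK had no probe by accession. A single probe that carries another accession is called MERTK in the supplementary list of the study, and its values are given apart and were left out of all counts. That list holds probes raised at least 2-fold in both resistant clones, so the direction of the MERTK probe was fixed by the way it was named.

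Total RNA of cultured cells was hybridised to 4 Agilent 1-colour arrays, 1 array per sample. The parental SkBr3 and BT474 cells, labelled as vehicle treated, are HER2-amplified human breast cancer lines. SkBr3/Lap and BT474/Lap are 1 clone of each line, labelled as lapatinib treated, that was selected in rising doses of lapatinib up to 1 μM. All 4 were grown in DMEM/F12 medium. The sample labels number the SkBr3 clone 3 and the BT474 clone 6, whereas the published text has these numbers the other way round, so the clones are named here by their parental line only. With 1 array per group, no difference between a clone and its parent has a replicate check or a test, and each clone stands for itself.

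Most receptor tyrosine kinases bind a ligand outside the cell, pair up and phosphorylate each other and docking proteins, which switch on the RAS-MAPK and PI3K-AKT pathways. EGFR and HER2, the kinases that lapatinib blocks, feed the same pathways. AXL and MERTK belong to the TAM family and bind GAS6, MET binds hepatocyte growth factor (HGF) and MST1R, also called RON, binds the HGF-like protein MST1. IGF1R and INSR bind insulin-like growth factors and insulin and dock the IRS proteins, while FGFR1 to FGFR4 bind fibroblast growth factors and dock FRS2.

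The 75th percentile of the processed signal lay between 1115 and 2074 on the 4 arrays, and 66.6% to 74.0% of the 41000 probes exceeded the background clearly. The array of SkBr3/Lap was on a slide of its own and the other 3 shared a slide, so slide and resistance cannot be told apart for the SkBr3 pair, whereas the BT474 pair lay within 1 slide. ERBB2, the gene of HER2, gave signals of 238524 (SkBr3), 118706 (SkBr3/Lap), 256346 (BT474) and 237327 (BT474/Lap), and was 3.74-fold lower in the SkBr3 clone and 1.57-fold lower in the BT474 clone after scaling. The luminal keratin genes KRT8, KRT18 and KRT19 and EPCAM were well above background on all 4 arrays, while CDH1, the gene of E-cadherin, was not well above background in SkBr3 and SkBr3/Lap.

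All 9 receptors with a probe by accession passed the filter on low values (a signal of 100 on at least 1 array), and the brightest probe of each was well above background in every sample. A level is given below as the processed signal, in arbitrary units of brightness, and a difference as the log2 fold change after each array's 75th percentile was subtracted. Scaling matters because a probe that stayed in the same place among all probes gives a brighter raw signal on the SkBr3/Lap array. The ± value is the error that the scanner software gives for the spots of 1 array, carried into the difference. It covers neither culture nor clone, and levels of different probes are not compared.

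In SkBr3/Lap, 4 of the 9 receptors were at least 2-fold higher than in SkBr3, namely MET, IGF1R, INSR and FGFR3, and 1, FGFR4, was at least 2-fold lower. The same criteria were met by 13.4% (higher) and 12.9% (lower) of the 12136 named genes that passed the filter, against 44.4% and 11.1% of the receptors. In BT474/Lap, INSR and FGFR2 were at least 2-fold higher (22.2%) and MST1R was at least 2-fold lower (11.1%), where 8.56% and 5.16% of all named genes were so. INSR was the single member at least 2-fold higher in both clones, as were 2.46% of all named genes, and no receptor was at least 2-fold lower in both, as were 1.21%. The median log2 fold change over the 9 receptors was 0.70 in the SkBr3 clone and -0.06 in the BT474 clone, beside medians of -0.06 and -0.09 over all named genes. In such bulk RNA, a change in the number of cells that express a gene and a change in RNA per cell cannot be told apart.

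**Figure D1:**
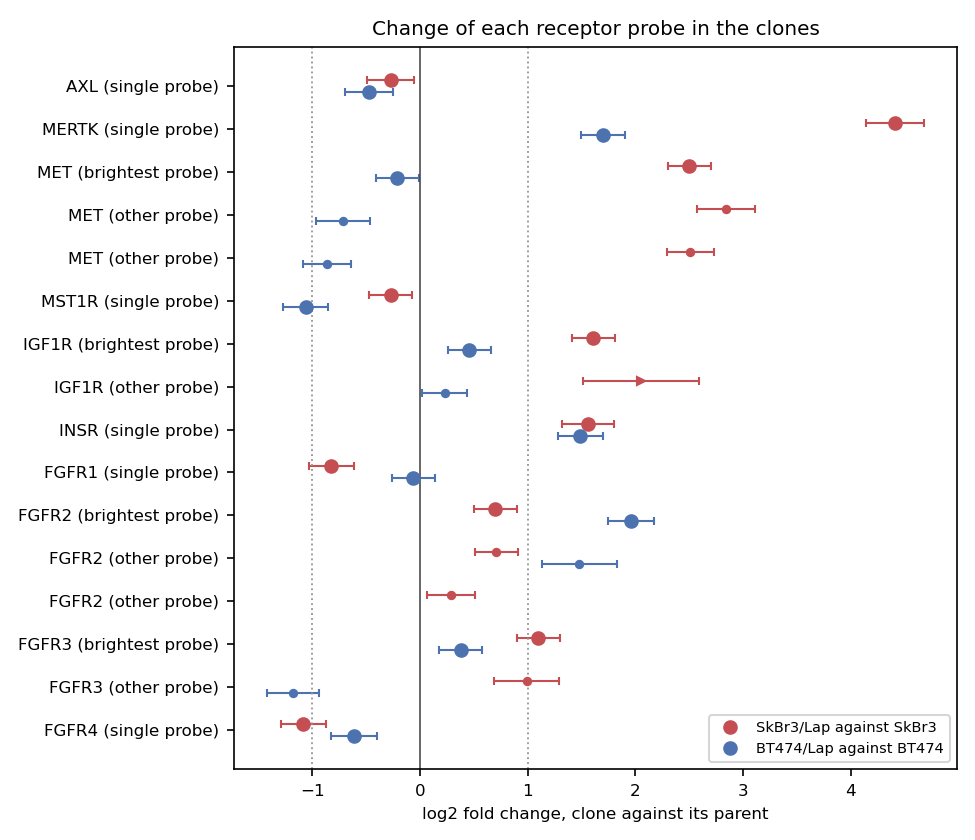
Log2 fold change of each receptor probe in SkBr3/Lap against SkBr3 (red) and in BT474/Lap against BT474 (blue), with 1 array per sample. Large symbols are the probe that represents a gene and small ones its other probes, bars are the error from the scanner software, the triangle is a lower limit, dotted lines mark 2-fold, and a probe not well above background on both arrays has no symbol. The 3 MET probes lie at 2.50 to 2.84 in SkBr3/Lap and below 0 in BT474/Lap, while INSR lies above the 2-fold line in both.

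Promoter sequences are shown for INSR, the single receptor at least 2-fold higher in both clones, for MET, with the largest difference among the 9 receptors named by accession, and for MERTK. Each is the stretch of 250 bases before the annotated start, in GRCh38.p14 coordinates from RefSeq, written 5′ to 3′ on the strand of the gene. Capitals mark GC boxes (GGGCGG on either strand, overlapping matches joined), the motif of SP1-type factors, which 42.6% of the 35116 promoter windows in the same RefSeq set contain.
INSR, chr19:7294415-7294664, minus strand: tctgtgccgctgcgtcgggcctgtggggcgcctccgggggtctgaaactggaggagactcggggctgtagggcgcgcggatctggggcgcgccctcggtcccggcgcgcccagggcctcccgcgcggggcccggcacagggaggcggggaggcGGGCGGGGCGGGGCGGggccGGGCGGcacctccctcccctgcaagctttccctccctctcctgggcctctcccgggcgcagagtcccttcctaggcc
MET, chr7:116671946-116672195, plus strand: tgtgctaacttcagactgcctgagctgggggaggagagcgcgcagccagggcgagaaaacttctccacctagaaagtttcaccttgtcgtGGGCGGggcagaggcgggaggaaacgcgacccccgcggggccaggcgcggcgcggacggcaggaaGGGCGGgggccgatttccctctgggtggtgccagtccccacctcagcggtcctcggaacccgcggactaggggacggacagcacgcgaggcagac
MERTK, chr2:111898357-111898606, plus strand: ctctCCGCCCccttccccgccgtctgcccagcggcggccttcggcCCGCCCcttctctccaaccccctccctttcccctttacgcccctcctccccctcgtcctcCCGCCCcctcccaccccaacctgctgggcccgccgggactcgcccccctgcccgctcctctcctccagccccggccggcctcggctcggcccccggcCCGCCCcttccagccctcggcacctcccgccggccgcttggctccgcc
The GC boxes numbered 4 in INSR, 2 in MET and 4 in MERTK. The windows are rich in G and C, at 78.4%, 68.4% and 78.8%, beside a median of 58.0% over all windows. None of the 3 windows holds the AP-1 motif TGANTCA, the forkhead motif GTAAACA or the NF-κB consensus, searched on both strands with overlaps between motifs allowed, which are present in 6.57%, 2.98% and 9.96% of all windows. Among the windows of the other receptors, which leave out FGFR1, 1 FGFR2 window and 1 FGFR4 window hold an NF-κB match. A match is a stretch of letters and not a bound site, and its absence says nothing about more distant elements.

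AXL, a TAM receptor, gave signals of 96.8 in SkBr3 against 149 in its clone, and 102 in BT474 against 107 in its clone. All 4 values were well above background. After scaling, AXL differed by -0.27 ± 0.22 in the SkBr3 clone and by -0.47 ± 0.22 in the BT474 clone on the log2 scale, so neither clone reached 2-fold, and the parental lines differed by 0.02. AXL was thus about level in the 4 samples, and the clones differed from each other by less than the error (scaled log2 levels of -3.80 and -3.98).

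The probe named MERTK, the TAM receptor known for clearing apoptotic cells, gave a signal of 26.4 (SkBr3), 1048 (SkBr3/Lap), 1263 (BT474) and 5949 (BT474/Lap). SkBr3 was the lowest by far, and SkBr3/Lap stayed under parental BT474 after scaling (log2 levels of -0.98 and 0.12). The difference was 4.41 ± 0.27 on the log2 scale (21.3-fold) in the SkBr3 clone and 1.70 ± 0.20 (3.25-fold) in the BT474 clone. Since the name came from a list chosen on these samples, both differences are a description. The SkBr3 signal is dim, and the first value was 3.06 with normexp and quantile normalization and 3.76 with 16 added to the signals. Between the parental lines, the probe was 46.0-fold higher in BT474 than in SkBr3. The list did not compare the parents, but the same dim SkBr3 signal entered its choice, so this difference is a description too. GAS6, a ligand of both TAM receptors, was not well above background in SkBr3 and SkBr3/Lap, at 135 in BT474 and at 1128 in BT474/Lap, 5.77-fold higher than in BT474. PROS1, the other TAM ligand, was not well above background on any array.

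MET, the HGF receptor, is represented by a probe spotted 10 times on each array. Its mean signal was 2295 in SkBr3 against 24192 in its clone, and 2351 in BT474 against 2956 in its clone. SkBr3/Lap stood apart from the other 3 samples. Before scaling, its 10 spots, from 22184 to 26602, did not overlap the spots of SkBr3, from 2183 to 2536. The spots are repeats on 1 array and do not measure the spread between cultures or clones. MET was 5.67-fold higher in SkBr3/Lap (2.50 ± 0.20 on the log2 scale) and differed by -0.21 ± 0.20 in BT474/Lap. Its other 2 probes, which are dimmer, gave 2.51 and 2.84 for SkBr3/Lap and -0.86 and -0.71 for BT474/Lap on the same scale. Thus, all 3 probes were above 5-fold in the first clone and below 0 in the second, without reaching 2-fold there. The parental lines were level at the represented probe, with a log2 difference of -0.02 ± 0.20, while BT474 was higher by 0.58 and 0.68 at the dimmer probes.

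**Figure D2:**
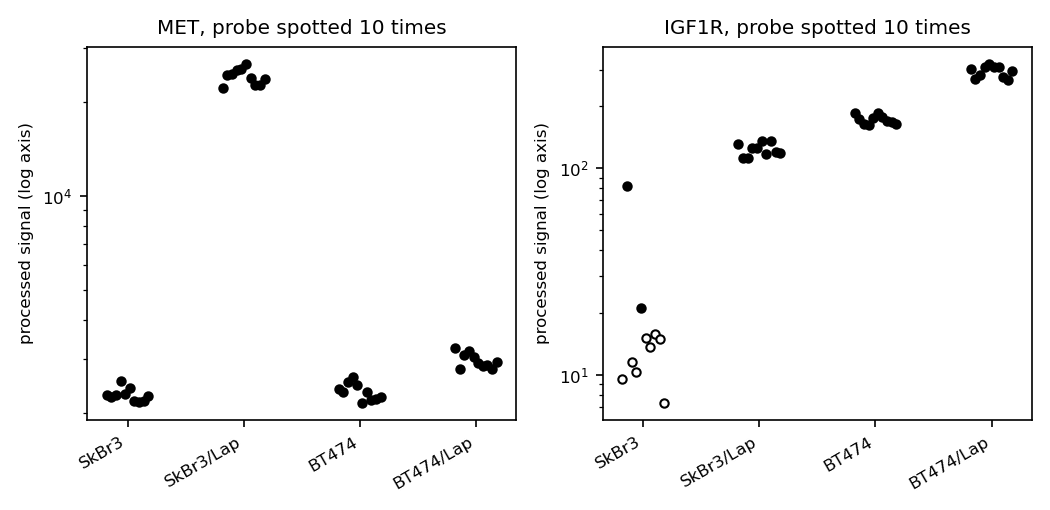
Processed signal, on a log axis and before scaling between arrays, of the 10 spots of the represented MET probe and of the dimmer IGF1R probe on each array. Filled points are spots well above background and open points are not. MET spots of SkBr3/Lap lie between 22184 and 26602, while the other 3 arrays lie between 2162 and 3236, and in SkBr3 only 2 of the 10 IGF1R spots are well above background.

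HGF, the MET ligand, was measured at 159, 153, 67.7 and 64.2 in SkBr3, SkBr3/Lap, BT474 and BT474/Lap. After scaling it was 1.94-fold lower in the SkBr3 clone and 1.53-fold lower in the BT474 clone, short of 2-fold in each. A second HGF probe, spotted 10 times, was not well above background on any array, so the probes disagree on whether HGF was expressed. MST1R, the receptor nearest in kind to MET, had signals of 2031 (SkBr3), 3141 (SkBr3/Lap), 327 (BT474) and 228 (BT474/Lap). The SkBr3 cells were high and the BT474 cells low, and parental SkBr3 exceeded parental BT474 by 6.45-fold. MST1R differed by -0.27 ± 0.20 on the log2 scale in SkBr3/Lap and was 2.09-fold lower in BT474/Lap (-1.06 ± 0.21), which is within its error of the 2-fold line and fell short of it with the percentile over probes well above background. Its ligand MST1 was 2.74-fold lower in the SkBr3 clone and 2.16-fold higher in the BT474 clone.

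IGF1R, the receptor of insulin-like growth factors, gave 625 in SkBr3 against 3557 in its clone, and 4794 in BT474 against 9592 in its clone at its brighter probe. The BT474 cells were high, SkBr3 was low and SkBr3/Lap lay between them. IGF1R was 3.06-fold higher in the SkBr3 clone (1.61 ± 0.20) and 1.38-fold higher in the BT474 clone (0.46 ± 0.20), and parental BT474 exceeded parental SkBr3 by 7.38-fold. The other probe, spotted 10 times, was not well above background in SkBr3, where 8 of 10 spots fell under the criterion and 1 spot of 82.3 was marked as an outlier by the software. Against the lowest signal well above background, this probe was at least 4.13-fold higher in SkBr3/Lap, and it was 1.18-fold higher in BT474/Lap. Both probes thus gave the same order of the 4 samples.

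INSR, the insulin receptor, gave signals of 44.2 (SkBr3), 242 (SkBr3/Lap), 142 (BT474) and 577 (BT474/Lap). Each clone was above its own parent, and SkBr3/Lap was close to parental BT474 (scaled log2 levels of -3.10 and -3.03). The log2 fold changes were 1.56 ± 0.24 (2.94-fold) in the SkBr3 clone and 1.49 ± 0.21 (2.80-fold) in the BT474 clone, which differ by less than these errors. Of all named genes, 8.77% had a higher fold change in SkBr3/Lap and 5.58% in BT474/Lap. The SkBr3 signal of 44.2 is dim, and with a different background correction (normexp, then quantile normalization) the SkBr3/Lap value was 0.84, below 2-fold, while that of BT474/Lap was 1.10. The ligand genes IGF1 and INS did not pass the filter, and IGF2 was at 52.9 to 165 with log2 fold changes of 0.10 and -0.06.

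FGFR1 was measured at 172 in SkBr3 against 181 in its clone, and 980 in BT474 against 1366 in its clone. It was 5.49-fold higher in parental BT474 than in parental SkBr3. Neither clone reached 2-fold against its parent, the values being -0.82 ± 0.21 on the log2 scale for SkBr3/Lap and -0.06 ± 0.20 for BT474/Lap, and the second value turned to 0.05 where the 75th percentile was taken over probes well above background on all arrays.

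FGFR2, whose splice forms bind different fibroblast growth factors, gave 3919 (SkBr3), 11881 (SkBr3/Lap), 146 (BT474) and 827 (BT474/Lap) at its brightest probe. SkBr3 cells were far above BT474 cells, by 27.8-fold between the parental lines. FGFR2 was 3.89-fold higher in BT474/Lap (1.96 ± 0.21), the largest difference of the 9 receptors in that clone, and remained under the level of either SkBr3 sample. In SkBr3/Lap it was 1.63-fold higher (0.70 ± 0.20). The second probe gave 1.63-fold in the SkBr3 clone and 2.79-fold in the BT474 clone, and the third, not well above background in both BT474 samples, gave 1.23-fold in SkBr3/Lap.

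FGFR3 gave 1529 in SkBr3 against 6093 in its clone, and 1618 in BT474 against 3060 in its clone. It was 2.14-fold higher in the SkBr3 clone (1.10 ± 0.20) and 1.30-fold higher in the BT474 clone (0.38 ± 0.20), and the parental lines were level at this probe. The first value lies within its error of the 2-fold line and was 0.87 with normexp. A second FGFR3 probe stayed under the filter on all arrays and disagreed in BT474/Lap, where it was 2.27-fold lower, while it was 1.98-fold higher in SkBr3/Lap. At this dim probe parental BT474 exceeded parental SkBr3 by 2.62-fold. FGFR4 gave 150 (SkBr3), 132 (SkBr3/Lap), 266 (BT474) and 253 (BT474/Lap). It was lower in both clones after scaling, by 2.11-fold in the SkBr3 clone (-1.08 ± 0.21) and by 1.53-fold in the BT474 clone (-0.61 ± 0.21), the first again within its error of 2-fold and short of it with median scaling or quantile normalization. No FGFR reached a 2-fold higher level in each of the clones.

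**Figure D3:**
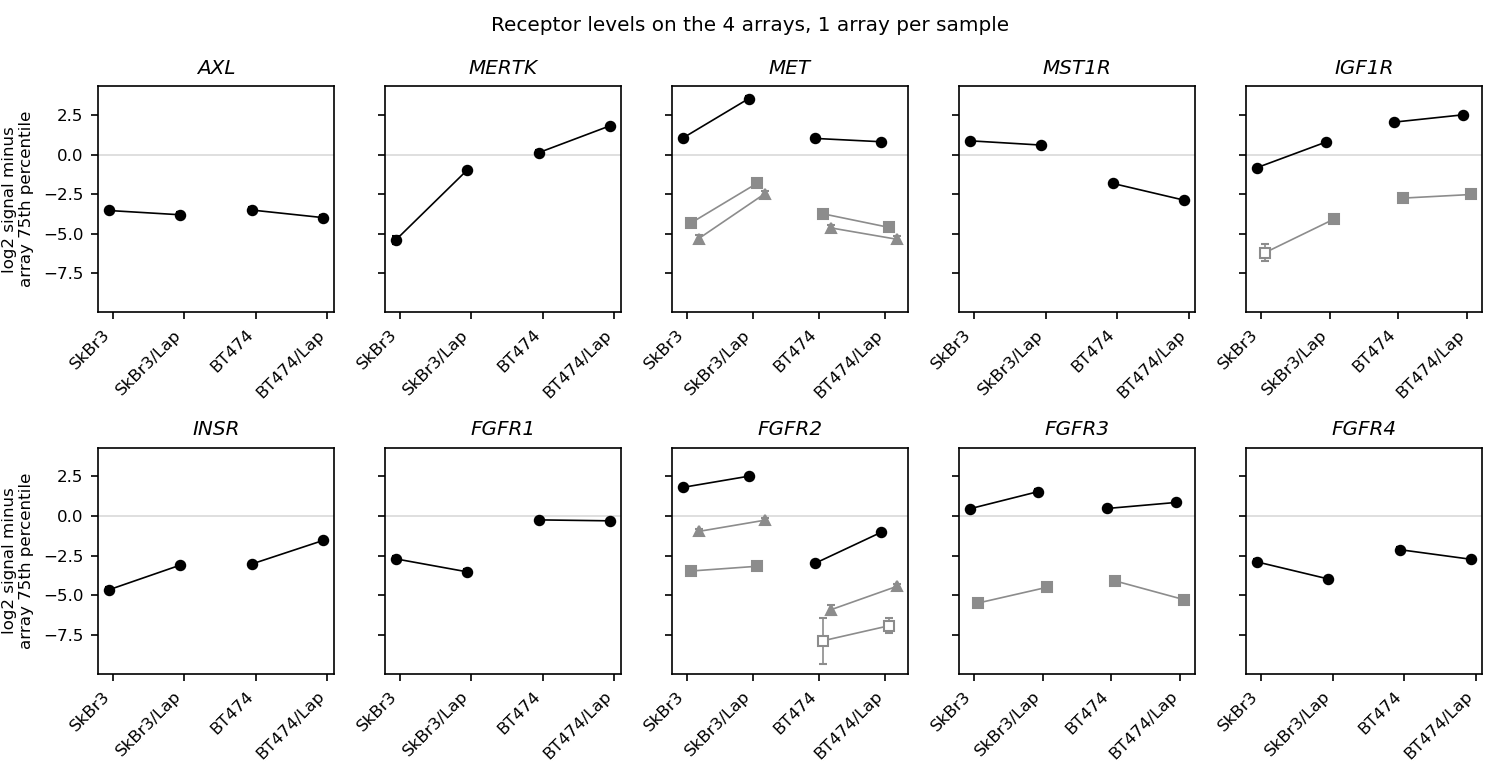
Scaled log2 level of each receptor on the 4 arrays, as the log2 processed signal minus the 75th percentile of the array, with lines from parent to clone. Black points are the probe that represents the gene, grey ones its other probes, open points are not well above background, and bars are the error from the scanner software. MST1R and FGFR2 are higher in SkBr3 than in BT474, and MERTK, IGF1R, FGFR1 and INSR are higher in BT474; heights of different probes are not comparable.

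At the represented probes, parental levels differed by more than 2-fold between the lines for 5 of the 9 receptors, with IGF1R, FGFR1 and INSR higher in BT474 and MST1R and FGFR2 higher in SkBr3. AXL, MET and FGFR3 differed by at most 0.03 on the log2 scale between the parents at these probes, with the dimmer MET and FGFR3 probes higher in BT474 as given above, and FGFR4 was 1.71-fold higher in BT474. Each of the 3 receptors that were higher in parental BT474 had a lower level in SkBr3/Lap than in BT474/Lap too.

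The effect of resistance over both lines was estimated with limma, with cell line as a block and 1 residual degree of freedom, which takes the 2 clones as replicates of resistance. At an adjusted p of 0.05, 0 of 25927 probes passed, and 900 (3.47%) had an unadjusted p under 0.05. The mean log2 fold change of INSR was 1.52 ± 0.42 (SE; limma, unadjusted p = 0.0272, adjusted p = 1), higher in 2 of 2 clones. FGFR2 averaged 1.33 ± 0.53 (limma, unadjusted p = 0.0763, adjusted p = 1), and MET 1.15 ± 0.84 (limma, unadjusted p = 0.251, adjusted p = 1). A fit on so few arrays does not show that the other receptors were alike in parents and clones.

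Genes of the pathway are given by their brightest probe, and other probes where they disagree. Ligands of the fibroblast growth factor family were mostly dim. Of 18 listed genes 5 passed the filter, with 2 at least 2-fold higher in each clone and none lower. Among all named genes, 13.4% were higher and 12.9% lower in SkBr3/Lap, and 8.56% and 5.16% in BT474/Lap. FGF1, which binds all FGFRs, gave 24.3 in SkBr3 and 901 in SkBr3/Lap, 19.9-fold higher, and was not well above background in the BT474 samples. FGF9 was well above background in the clones only, at 259 in the SkBr3 clone and 92.9 in the BT474 clone, and was thus at least 8.68-fold and at least 4.01-fold higher. Both FGF1 and FGF9 passed the filter through SkBr3/Lap alone, so the filter itself favoured a higher call for them in that clone. FGF18 was 5.35-fold higher in BT474/Lap (154 against 1193) and differed by 0.10 on the log2 scale in SkBr3/Lap. Of the 4 TAM and MET-family ligands, 3 passed the filter.

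Adaptors that dock on these receptors passed the filter in 13 of 15 cases. Of these, 5 were at least 2-fold higher in the SkBr3 clone and 3 in the BT474 clone, with none lower. The shares of all named genes that were higher were 13.4% and 8.56%. IRS1, IRS2 and GAB2 were higher in both clones. IRS1, the main docking protein of IGF1R and INSR, gave 141 in SkBr3 against 1096 in its clone, and 1095 in BT474 against 4785 in its clone (4.18-fold and 3.01-fold). IRS2 gave 29.4, 2005, 511 and 2864 in the same order (36.7-fold and 3.87-fold). The other 2 IRS2 probes were under the filter, and 1 gave at least 2.09-fold and 1.56-fold higher, while the other was 1.46-fold lower in the SkBr3 clone and 1.23-fold higher in the BT474 clone, so the size and, in SkBr3/Lap, the direction depend on the probe. At the represented probes, both IRS genes and INSR were lowest in SkBr3 and highest in BT474/Lap. GAB2, a docking protein that recruits SHP2 and PI3K, was 11.3-fold higher in the SkBr3 clone and 2.61-fold higher in the BT474 clone. A second GAB2 probe, under the filter, was at least 1.66-fold higher in SkBr3/Lap and gave no fold in BT474/Lap. GAB1, the main docking protein of MET, was 3.19-fold higher and CRKL 5.55-fold higher in SkBr3/Lap, with log2 fold changes of 0.27 and -0.11 in BT474/Lap. FRS2, the docking protein of the FGFRs, differed by 0.37 and -0.18, and GRB2, SHC1 and PIK3R1 by 0.26 or less in size in both clones at their represented probes. A second SHC1 probe was 2.50-fold higher in SkBr3/Lap, a second PIK3R1 probe was 2.26-fold lower in BT474/Lap, and the other GRB2 probes lay between -0.56 and 0.34. The median over the 13 adaptors was 0.26 in the SkBr3 clone and -0.03 in the BT474 clone.

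Negative regulators differed in both directions. Among 16 genes, 6 were at least 2-fold higher and 3 lower in SkBr3/Lap, and 2 were higher and 3 lower in BT474/Lap. The shares of all named genes were 13.4% higher and 12.9% lower in SkBr3/Lap, and 8.56% and 5.16% in BT474/Lap. GRB14, an inhibitor of INSR signaling, was 7.72-fold and 2.12-fold higher in SkBr3/Lap and BT474/Lap, and SOCS3, induced by cytokines, 5.44-fold and 2.44-fold. A second SOCS3 probe, under the filter, was at least 1.41-fold higher in SkBr3/Lap and gave no fold in BT474/Lap. SPRY4, a feedback inhibitor of the MAPK pathway, was lower in both, by 3.82-fold and 3.73-fold. SPRY1 and SPRED1, of the same inhibitor family, were 3.65-fold and 3.71-fold lower in BT474/Lap, whereas SPRY2 was 3.41-fold higher in SkBr3/Lap. LRIG1, which promotes receptor degradation, was 2.98-fold lower and ERRFI1, an EGFR and HER2 inhibitor, 3.95-fold higher in SkBr3/Lap. CBL, the ubiquitin ligase of MET and EGFR, was 2.02-fold lower in SkBr3/Lap, on the 2-fold line, whereas a second probe under the filter was at least 1.60-fold higher.

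Of 9 measured co-receptors, decoys and kin, FGFRL1, an FGF receptor without a kinase domain, reached 2-fold in each clone (6.88-fold higher in the SkBr3 clone and 2.01-fold in the BT474 clone). The second value lies on the 2-fold line, and a second FGFRL1 probe, under the filter, was at least 1.10-fold higher in SkBr3/Lap and 1.30-fold lower in BT474/Lap. CD44, whose splice forms can assist MET, gave 124 (SkBr3), 19894 (SkBr3/Lap), 2027 (BT474) and 2585 (BT474/Lap), an 86.5-fold difference in the first clone and 1.14-fold lower in the second. As for MET, SkBr3/Lap was the highest of the 4 samples. NRP1, a co-receptor of semaphorins and growth factors, was 59.5-fold lower in the SkBr3 clone and 2.11-fold higher in the BT474 clone, and SDC1, a heparan sulfate carrier, was 6.81-fold lower in SkBr3/Lap. TYRO3, the other TAM receptor, did not reach 2-fold in either clone. Among 8 measured proteases and their inhibitors, PCSK5, a proprotein convertase, was 6.52-fold and 3.75-fold higher, whereas PCSK6 was 38.7-fold higher in the SkBr3 clone and 2.39-fold lower in the BT474 clone. FURIN, which cleaves the MET and INSR precursors, was at least 2.68-fold higher in BT474/Lap and 1.82-fold higher in SkBr3/Lap.

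**Figure D4:**
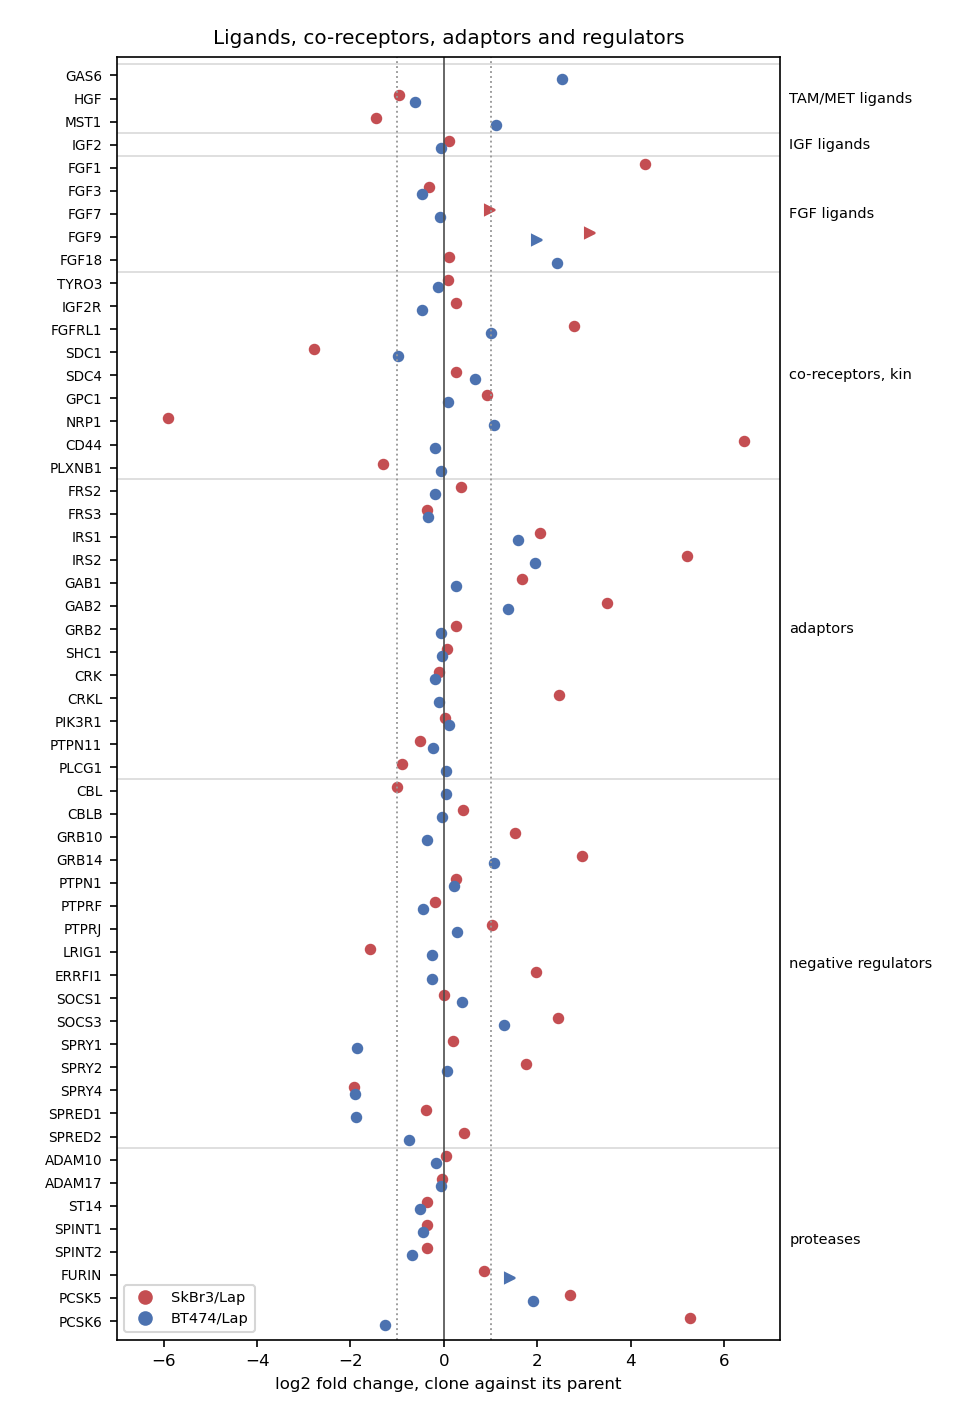
Log2 fold change in SkBr3/Lap (red) and BT474/Lap (blue) of the ligands, co-receptors, adaptors, negative regulators and proteases that passed the filter, 1 probe per gene and 1 array per sample. Triangles are limits, dotted lines mark 2-fold, and a gene not well above background in both samples of a pair has no symbol. IRS1, IRS2, GAB2, FGF9, FGFRL1, GRB14, SOCS3 and PCSK5 lie at or above the upper 2-fold line in both clones and SPRY4 below the lower one.

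Genes of basal and mesenchymal cells differed beside the receptors. In SkBr3/Lap 10 of 14 measured genes were at least 2-fold higher and 1 lower, and in BT474/Lap 7 and 1, with 5 higher in both. The summed signal of the list, in units of the 75th percentile, was 12.2 in SkBr3 against 34.8 in its clone, and 21.8 in BT474 against 29.0 in its clone, while the luminal list summed to 644, 446, 585 and 391. LAMB3, a laminin chain of basal cells, was 5.22-fold higher in the SkBr3 clone and 7.35-fold in the BT474 clone, and CAV1, of caveolae, 2.86-fold and 50.3-fold. The mesenchymal genes VIM and FN1 ran against this direction. VIM was the 1 lower gene of the BT474 clone (2.86-fold), although the SkBr3 clone exceeded its parent by 3.39-fold. FN1 was the 1 lower gene of the SkBr3 clone (3.63-fold), and its drop of 1.49-fold in the BT474 clone stayed short of 2-fold. Of 12 luminal genes, 1 was at least 2-fold higher and 3 lower in SkBr3/Lap, and 0 were higher and 2 lower in BT474/Lap. These counts stand beside the same shares of all named genes. SPDEF, a luminal transcription factor, was 74.8-fold and 2.29-fold lower, and MUC1, a mucin of luminal cells, was 2.25-fold higher in the SkBr3 clone and 2.56-fold lower in the BT474 clone. ZEB1 and ZEB2 did not pass the filter. The part of these shifts in the receptor values was not tested. The fibroblast genes DCN, LUM and COL1A2 and the leukocyte gene PTPRC were not well above background on any array, but of 7 fibroblast genes 4 were well above it in SkBr3/Lap, against 1 in each of the other samples, with PDGFRB, under the filter, at least 2.18-fold higher. Over these 7 genes the sum was 1.03 to 1.51, over 6 leukocyte genes 0.135 to 20.9, of which CSF1R made up most in the SkBr3 samples, and over 6 endothelial genes 0.179 to 0.792. COL3A1 was at least 11.7-fold higher and CDH5 8.43-fold higher in SkBr3/Lap, and PECAM1 was at least 5.38-fold and at least 2.38-fold higher in the 2 clones. GAPDH and ACTB, used as reference genes, differed by -0.43 and -0.51 in SkBr3/Lap and by -0.02 and -0.86 in BT474/Lap on the log2 scale.

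Other genes with a pattern closest to a receptor were sought over the 4 scaled log2 values after the mean of each probe was removed, among 10936 genes well above background on all arrays. FMNL2, SLC12A4 and PLIN2 lay nearest to MET (Euclidean distances of 0.25, 0.26 and 0.26 on the log2 scale). HERC5, GUCA1B and RHBG lay nearest to INSR (0.37, 0.42 and 0.42), and IVL, PDLIM2 and LOXL2 to FGFR2 (0.29, 0.37 and 0.50). BCORL1, FRYL and MICAL1 were nearest to FGFR3 (0.06, 0.07 and 0.13), IBTK, WBP1 and NDRG4 to FGFR4 (0.19, 0.19 and 0.20), and TMEM9, ANKS6 and FAM83D to MST1R (0.24, 0.38 and 0.39). With 4 points a pattern, many genes fit closely by construction.

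**Figure D5:**
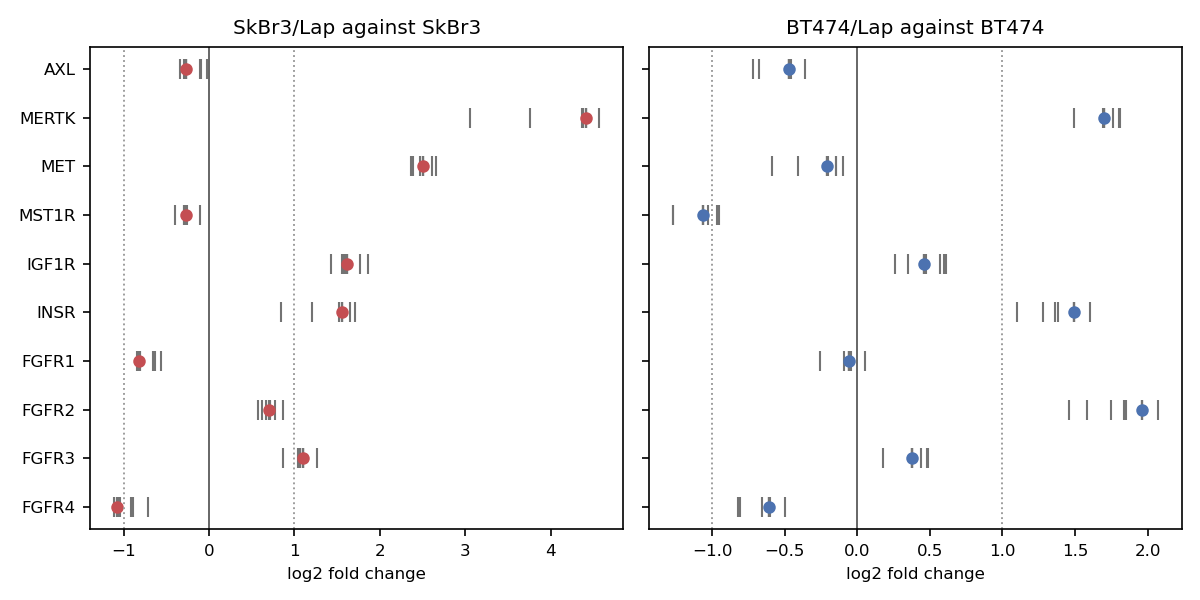
Log2 fold change of each receptor in the 2 clones as reported (coloured points) and under 10 alternative ways to process the signals (grey ticks), with dotted lines at 2-fold. Alternatives that change only the filter repeat the reported value by construction. MET and IGF1R in SkBr3/Lap and INSR and FGFR2 in BT474/Lap stay above 2-fold throughout, while INSR and FGFR3 in SkBr3/Lap drop to 0.84 and 0.87 with normexp.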

How the data were processed

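RNA of parental SkBr3 and BT474 cells and of 1 lapatinib-resistant clone of each was measured on 1 Agilent 4 × 44 K array per sample. The authors deposited the processed signal of each spot, an intensity after background subtraction by Feature Extraction 10.1.1.1, with its error, the median pixel intensities and the flags. The files are in 1 colour (Cy3) although the published methods describe Cy3 or Cy5 and LOWESS. The authors also deposited a table of log2 values, whose differences between a clone and its parent deviated by at most 0.62 from those of the processed signals and whose columns have medians of -0.20 to 0.12. Its scaling and centring are not given in the sources used here.

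Spots were averaged per probe on the log2 scale, and the 75th percentile of the non-control probes of an array was taken off. The filter of 100 kept 25927 probes. Well above background means that this mark was on 50% or more of a probe's spots. The brightest probe stood for a gene. A 2-fold call needed the brighter array well above background, and a dimmer array that was not was set to the lowest such signal (13.3 to 16.0), which makes the fold a limit. No fold is given where neither array was well above background. RefSeq accessions (GRCh38.p14, for names and promoters only) named 23680 probes. Promoter windows were matched for the receptors other than FGFR1, and probe sequences were not used here.

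The members and lists were chosen with earlier results of these data known. Named genes are all receptors, list genes called in both clones in 1 direction or with the largest calls, the 3 nearest genes of each called receptor, GAPDH and ACTB. The nearest genes of IGF1R are not reported here. KRT8, KRT18, KRT19, EPCAM, CDH1, FRS2, GRB2, SHC1, PIK3R1, TYRO3, HGF and IGF2 were named for their role. NTRK2, PDGFRB, FN1 and VIM were chosen after their values were seen. The number of arrays limits the precision. limma 3.58.1 (R 4.3.3) used Benjamini-Hochberg adjustment over all kept probes, and other steps Python 3.11.15, numpy 2.4.6, pandas 2.3.3 and matplotlib 3.10.9, tested on simulated data. Alternatives were median scaling, the percentile over probes well above background, quantile normalization alone or after normexp (offset 50), the authors' log2 values, a pseudocount of 16, no filter or one on background, no outlier spots, the mean over probes, 3-fold, no limits, and limma with no block or with slides as blocks.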

Additional observations from a re-analysis of the deposited data

Results flagged for a closer look

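MET went in opposite directions in the clones, with a log2 fold change of 2.50 in the SkBr3 clone and of -0.21 in the BT474 clone at its represented probe, and its other probes did the same. The value in BT474/Lap is about the size of its error (± 0.20) and does not reach 2-fold. With 1 array per sample the difference between the clones was not tested, and the array of SkBr3/Lap was on a slide of its own.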

How the results depend on the processing

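Each clone was paired with its own parent in the fold changes, and limma took the cell line as a block. With 1 array per group there were no replicates to pair beyond that. The count of receptors at least 2-fold higher in SkBr3/Lap went from 4 to 2 with normexp and at a threshold of 3-fold, and that of lower receptors from 1 to 0 with median scaling, quantile normalization, normexp and 3-fold. In BT474/Lap the higher count went from 2 to 1 at 3-fold, and the lower count from 1 to 0 with the percentile over probes well above background, with normexp and at 3-fold. Median scaling moved the median over the receptors in BT474/Lap from -0.06 to -0.26, along with a shift of all named genes by -0.21 there and 0.16 in SkBr3/Lap. With it, 45.6% of the genes called in BT474/Lap were higher, against 62.4% with the 75th percentile, and lower genes numbered 996 in place of 626. Named genes at least 3-fold higher or lower numbered 980 and 785 in SkBr3/Lap and 567 and 264 in BT474/Lap, in place of 1632, 1571, 1039 and 626 at 2-fold, and 691 were higher in BT474/Lap among genes well above background on all arrays. No receptor called at 2-fold changed sign under any of the 10 alternatives that give each receptor a value. Alternatives that change only the filter repeat the reported value by construction, and leaving out outlier spots did not alter it for any receptor. With limma, 0 probes passed an adjusted p of 0.05 in any fit, with 308 to 911 at an unadjusted p under 0.05. With the slide as a block in place of the cell line, where SkBr3/Lap has no counterpart, the mean of FGFR2 went from 1.33 to -0.44, that of MET from 1.15 to -0.22 and that of INSR from 1.52 to 2.30. In that fit SkBr3/Lap adds nothing to the estimate, which sets BT474/Lap against the mean of both parents. It thus includes the difference between the cell lines and is not an alternative estimate of resistance. The cause of the other differences between settings was not tested. Dim signals limit MERTK and INSR, with SkBr3 signals of 26.4 and 44.2, and the second FGFR3 probe.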

Other observations

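Of 30 other receptor tyrosine kinases with a probe, 13 passed the filter at their brightest probe, against 9 of 9 of the receptors above. In SkBr3/Lap, 3 were at least 2-fold higher and 2 lower, and in BT474/Lap 2 were higher and 1 lower, with medians of 0.06 and 0.00 on the log2 scale. The shares of all named genes were 13.4% higher and 12.9% lower in SkBr3/Lap, and 8.56% and 5.16% in BT474/Lap. NTRK2, not among the 13, had a second probe that passed and was at least 4.99-fold higher in BT474/Lap. ROR1, a receptor of WNT5A, was the single one of the 13 higher in both clones. Its signals were 3.62 (SkBr3), 884 (SkBr3/Lap), 3.64 (BT474) and 67.0 (BT474/Lap), with both parents not well above background, so that it was at least 29.7-fold and at least 2.89-fold higher. EGFR, a target of lapatinib, gave 2767, 12836, 217 and 124 in the same order, 2.49-fold higher in the SkBr3 clone and 2.53-fold lower in the BT474 clone.

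CSF1R, the receptor of macrophage colony-stimulating factor, was at 5913 in SkBr3 and 42225 in SkBr3/Lap (3.84-fold higher) and not well above background in either BT474 sample, while PTPRC, a gene of all leukocytes, was not well above background on any array. ERBB4, a HER2 partner, was at 106 in SkBr3 and not well above background in SkBr3/Lap, at least 14.8-fold lower, and at 812 and 717 in BT474 and BT474/Lap. A second ERBB4 probe, under the filter, ran the other way in the SkBr3 pair, at 3.41 in SkBr3, where it was not well above background, and 16.8 in SkBr3/Lap, where it was. FLT3 was 2.76-fold higher in BT474/Lap (57.4 against 230) and not well above background in the SkBr3 samples.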
